A study of Rattus norvegicus with 20 samples.

Results

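The microRNAs (miRNAs) miR-221 and miR-222 were followed in soleus muscle and dorsal root ganglia (DRGs) of rats after injury of the sciatic nerve. They were taken by name, as the array features rno-miR-221 and rno-miR-222, and are 2 of the 348 miRNAs that carried 1 name in every array file. Both were read on all 20 arrays, 10 per tissue. In the DRGs, miR-222 read lower after nerve entrapment and after decompression than in the sham control and after denervation. It was detected on 1 of these 6 arrays, and its differences from sham did not pass when only the groups compared were fitted. miR-221 was lower after entrapment and after decompression than after denervation, and its differences from the sham control did not pass the test. The same 6 arrays did not overlap with the other 4 on 24 of 45 control features, which hold no rat miRNA. Whether the injury or the set of arrays accounts for the differences between them was not tested. In soleus, miR-221 was detected on 4 of 10 arrays and miR-222 on 1.

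The rats were adult male Sprague-Dawley rats of 4 groups. In the denervation group the sciatic nerve had been cut, a piece removed and the stump moved away from its muscle, and tissue was taken after 6 months. In the entrapment group a silastic tube that did not constrict had lain around the nerve for 6 months. In the decompression group the tube was taken off after 6 months of entrapment, and tissue was collected 3 months later. Each of these groups had 3 arrays per tissue. The sham operation control had 1 array per tissue, whose time after surgery the labels do not give. Comparisons with sham may therefore differ in time since surgery as well. Decompression differs from entrapment and from denervation in time since the first surgery too. The study's methods give 3 rats per group, and neither they nor the labels say whether the sham array held RNA of 1 rat or of a pool. Soleus is a muscle supplied by the sciatic nerve, and the ganglia were those of segments L4 to L6, which hold the cell bodies of its sensory fibres together with satellite glia, Schwann cells, vessels and blood.

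miR-221 and miR-222 are made from neighbouring hairpins and share their seed, the bases near the 5′ end through which a miRNA pairs with its target mRNAs. They are known for repressing the cell cycle inhibitor p27 in dividing cells, for their presence in vessel walls and in proliferating myoblasts, and for rising in sensory ganglia after a nerve is cut. Because both can come from 1 primary transcript, their levels often move together, although each mature miRNA is processed and turned over separately.

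The array names carry no arm, and the older name without an arm is that of the 3p strand of either hairpin. The 3p sequences are shown because their seed makes the pair a family. They come from RefSeq on build GRCr8, where miR-222-3p lies at chrX:6022682-6022702 and miR-221-3p at chrX:6023246-6023268, both on the + strand. Capitals mark the seed, bases 2 to 8.

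rno-miR-221-3p: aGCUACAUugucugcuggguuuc
rno-miR-222-3p: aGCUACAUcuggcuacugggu

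The first 8 bases are the same in both, and 11 of the 21 positions that can be compared without a gap hold the same base. Among 693 mature rat miRNAs in the RefSeq table these were the only 2 with the seed GCUACAU. The opposite arms are shown for contrast, since they share no such seed.

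rno-miR-221-5p: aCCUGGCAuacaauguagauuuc
rno-miR-222-5p: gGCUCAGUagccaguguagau

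The hairpins, annotated as Mir222 and Mir221, lie in the same direction with 458 bases between them. Their RNA is printed with the 3p strand in capitals, to show from which side of the loop the measured strand is cut.

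Mir222: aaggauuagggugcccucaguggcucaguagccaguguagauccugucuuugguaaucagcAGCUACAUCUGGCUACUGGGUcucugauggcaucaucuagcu
Mir221: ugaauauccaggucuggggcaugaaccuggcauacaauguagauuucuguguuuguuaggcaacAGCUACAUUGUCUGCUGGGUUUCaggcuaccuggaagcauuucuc

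Mir222 spans chrX:6022621-6022723 and Mir221 chrX:6023182-6023290. A probe for one 3p strand therefore meets the same 5′ end as a probe for the other. The remainders are not identical, but they share a stretch toward the other end, shifted in position, which a comparison without a gap does not count. How far the probes tell both strands apart was not tested.

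The measured value is the total gene signal, an intensity summed over a miRNA's probes after background subtraction, which comes with an error and a detection call. For both members all 40 of 40 calls matched a signal of over 3 errors. Precision is limited by how few arrays there are, above all by having 1 for sham. The array sets were checked first. Control features, which hold no rat miRNA, split the arrays of a tissue into sham with denervation (4 arrays) and entrapment with decompression (6 arrays). The sets did not overlap on 24 of 45 such features in the DRGs and on 12 of 45 in soleus. The median of the 7 negative control features was -1.33 to 1.26 on the sham and denervation arrays of the DRGs and 6.97 to 13.0 on the others. In soleus it was -8.05 to 2.51 and 11.4 to 15.5. Group and handling of the arrays therefore cannot be told apart for any difference between these sets. Denervation against sham, and decompression against entrapment, each lie within 1 set. A second table that the authors deposited holds the signals of both members divided by a constant per array (within 0.1%), apart from 5 soleus values of miR-222 near or below 0, which are set to 0.01. Its columns named for entrapment and decompression of the DRGs each hold the scanner arrays of the other group. The names of the scanner files are used here, and where the other naming matters it is said. The labelled tissues matched their defining miRNAs. The summed scaled signal of 5 muscle miRNAs was 59380 to 360891 in soleus and 248 to 395 in the DRGs, and all 8 neuronal miRNAs were detected on all DRG arrays, while 5 to 7 of the 8 were detected on no array of a soleus group.

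In the DRGs, miR-221 was detected on all 10 arrays. Its signal before scaling was 44.4 on the sham array. It was 74.3, 58.4 and 65.7 on the denervation arrays, 28.6, 32.0 and 39.0 on the entrapment arrays, and 32.0, 36.1 and 33.6 on the decompression arrays. The denervation arrays were the 3 highest and overlapped with no other group. miR-222 read 28.4 on the sham array and 48.8, 38.4 and 39.5 on the denervation arrays, and was detected on each of them. On the entrapment arrays it read 5.41, 4.62 and 8.13 and was detected on none. On the decompression arrays it read 8.73, 7.63 and 5.81 and was detected on the first alone. These 6 readings lie far below the other 4, and on these 6 arrays the median of the negative control features was itself 6.97 to 13.0. In the ganglia both members were thus highest after denervation, but they parted in the other groups: miR-221 stayed detected and miR-222 mostly did not.

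**Figure D1:**
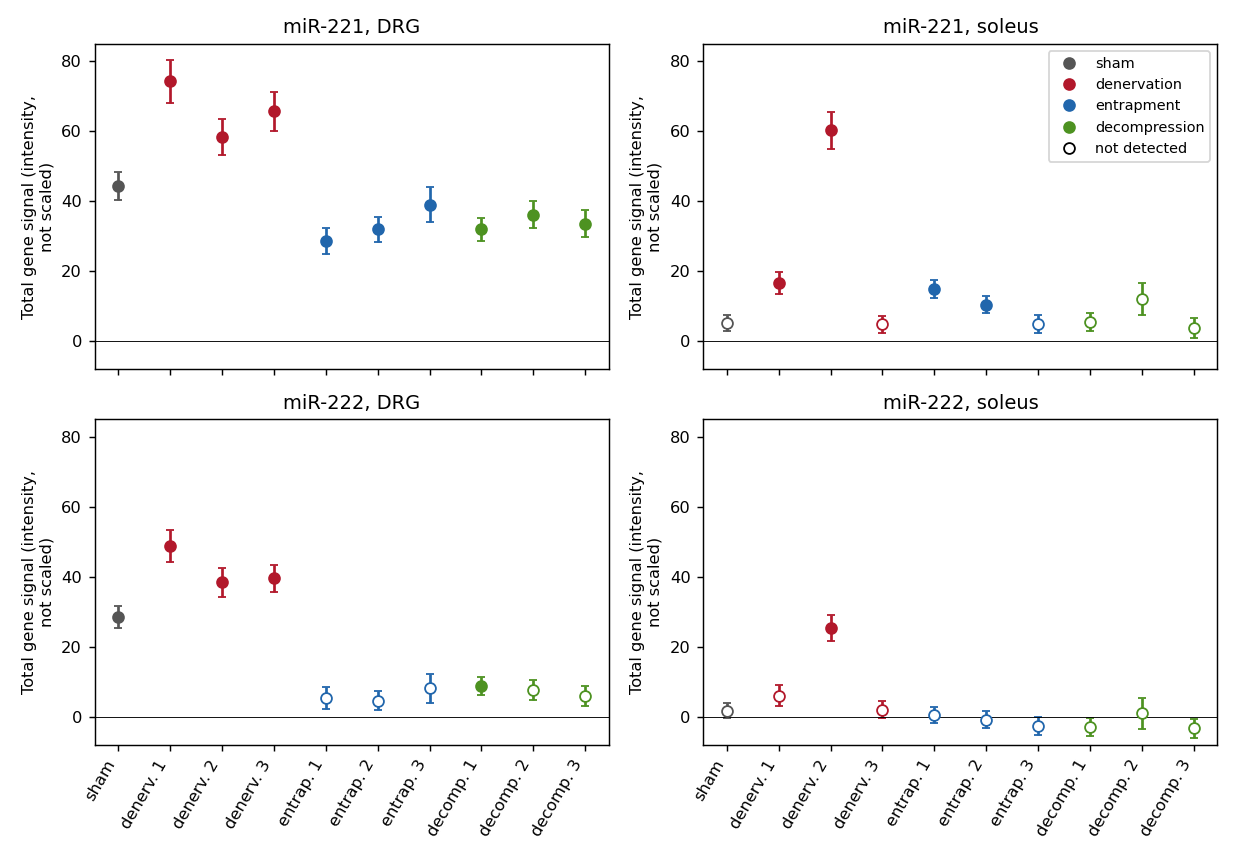
Total gene signal before scaling (intensity) of miR-221 (top) and miR-222 (bottom) on each DRG array (left) and soleus array (right), with the error of the array as bars. Filled points were detected and hollow points were not. In the DRGs, miR-221 was detected on all 10 arrays. miR-222 read 28.4 to 48.8 on the sham and denervation arrays and 4.62 to 8.73 on the other 6.

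To compare arrays, each was scaled to the 75th percentile of its signals, which lay between 72.0 and 117 over the 10 DRG arrays, and values were put on the log2 scale. In all, 219 miRNAs with a detection call on 3 or more DRG arrays were tested in 1 limma fit of all 10 arrays. miR-221 then stood at 38.5 on the sham array, and its group means were 53.7 ± 1.65 (SD, n = 3) for denervation, 36.5 ± 2.00 (SD, n = 3) for entrapment, and 37.2 ± 1.11 (SD, n = 3) for decompression. Denervation was the highest of the groups, and limma called no difference among the other 3. miR-222 stood at 24.7 on the sham array, and its group means were 34.3 ± 1.78 (SD, n = 3) for denervation, 6.61 ± 1.33 (SD, n = 3) for entrapment, and 8.12 ± 1.67 (SD, n = 3) for decompression. Its order was denervation, sham, decompression, entrapment, and neither the first pair nor the last pair differed past the threshold of limma. For miR-221 scaling brought the sham array, at 38.54, next to the highest decompression array, at 38.49.

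**Figure D2:**
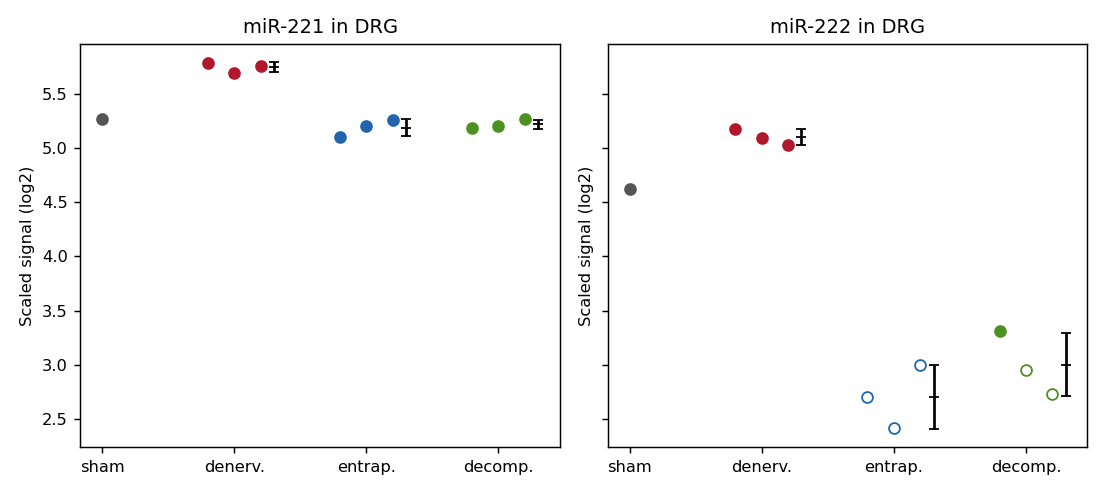
Scaled signal (log2) of miR-221 (left) and miR-222 (right) on the 10 DRG arrays by group. Points are arrays, hollow where the miRNA was not detected, and the black bars are the mean and SD of the 3 arrays. The denervation arrays are highest in both panels, and only miR-222 reads far below sham on the entrapment and decompression arrays.

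The first comparison asks how the ganglia differed after the nerve had been cut. On the 3 denervation arrays, miR-221 was higher than on the sham array by 0.51, 0.43 and 0.49 on the log2 scale. The fitted difference was 0.48 (SE 0.10), a 1.39-fold higher mean, with an adjusted p of 0.0901 by limma, so it did not pass the threshold of 0.05 (unadjusted p = 0.00123 by limma). In units of its SE it was 217th of 219 from the lowest, that is, the 3rd highest. miR-222 was higher by 0.55, 0.47 and 0.40, with a fitted difference of 0.47 (SE 0.25) and an adjusted p of 0.371 by limma. The median over all tested miRNAs was -0.02. By limma 1 of the 219 miRNAs (0.457%) was higher after denervation, and it was neither member. That miRNA was miR-21, which promotes survival of injured cells and was higher by 1.29 (adjusted p = 0.00511 by limma). The 3 denervation arrays were above all 7 other arrays for both members, as they were for 25 of 219 miRNAs (11.4%). Under quantile normalization, rank-consistent loess and no filter, miR-221 passed, with values between 0.48 and 0.58.

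Entrapment was compared with sham next. miR-222 was lower on each of the 3 entrapment arrays, with log2 differences of -1.93, -2.21 and -1.63, and the fitted difference was -1.92 (SE 0.25, adjusted p = 0.00108 by limma). Since no entrapment array detected it, the fold is not exact. The readings as they stand put sham 3.79-fold higher, taken, like every fold here, on means of log2 values. An entrapment level just under the detection limit of 3 errors would give a smaller fold. Of the 219 tested miRNAs 38 (17.4%) were lower by the same test and 24 (11%) were lower by at least 2-fold on each array, miR-222 among both. It ranked 13th from the lowest of 219. miR-221 differed from sham by -0.17, -0.06 and -0.01, with a fitted difference of -0.08 (SE 0.10, interval -0.31 to 0.15, adjusted p = 0.591 by limma), near the median of all tested miRNAs, -0.11. The call of miR-222 rests on the spread shared by all groups: fitted on the sham and entrapment arrays alone, the same difference had an adjusted p of 0.0651 by limma.

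Decompression was compared with sham in the same way. miR-222 was lower on the 3 arrays, with log2 differences of -1.31, -1.67 and -1.89 and a fitted difference of -1.62 (SE 0.25, adjusted p = 0.00257 by limma). It was detected on 1 of these 3 arrays, so no exact fold is given. By the same test 36 of 219 miRNAs (16.4%) were lower, and 30 (13.7%) were lower by at least 2-fold on each array, with miR-222 again in both counts. miR-221 differed by -0.05 (SE 0.10, interval -0.28 to 0.18, adjusted p = 0.704 by limma) against a median of -0.13. With the sham and decompression arrays alone the adjusted p of miR-222 was 0.0661 by limma. Under median scaling and quantile normalization the 2-fold count no longer held miR-222 after decompression. The direction of the miR-221 differences depends on the scaling. After entrapment and decompression they were 0.76 and 0.80 under median scaling, which passed (adjusted p = 0.00843 and 0.00653 by limma), where the median of all tested miRNAs was itself 0.73 in either comparison. Under quantile normalization they were 0.28 and 0.25 and passed too (adjusted p = 0.0220 and 0.0334 by limma), and under loess they were 0.14 and 0.13 and did not. With the negative controls subtracted, the value after decompression was -0.41 and passed the other way (adjusted p = 0.0428 by limma). The split of calls over all miRNAs moved with it: 38 lower and 5 higher after entrapment became 14 and 127 under median scaling and 22 and 44 under quantile normalization, and 36 and 4 after decompression became 18 and 130 or 24 and 37.

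**Figure D3:**
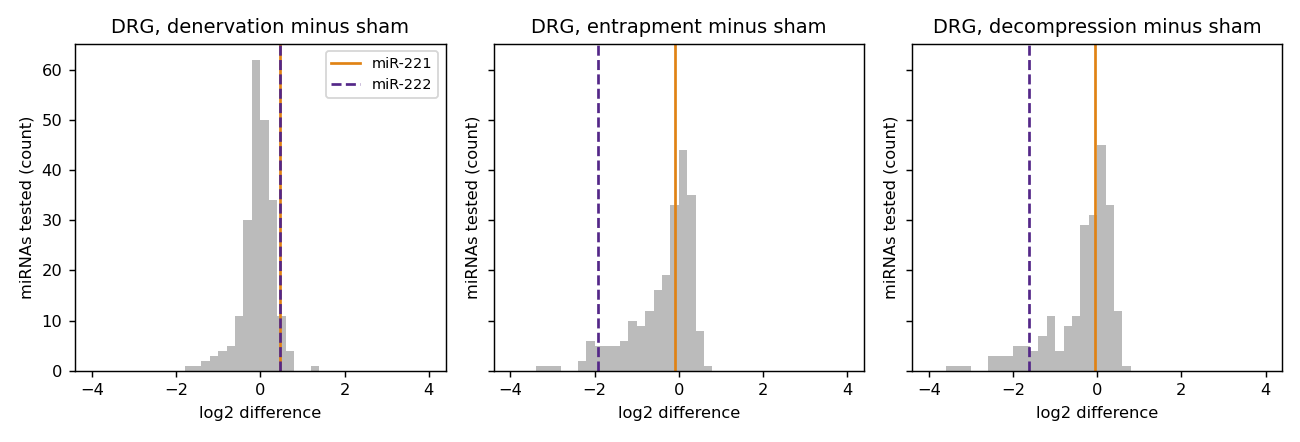
Distribution of the log2 differences from sham of the 219 miRNAs tested in the DRGs, after denervation (left), entrapment (middle) and decompression (right), with the values of miR-221 (solid line) and miR-222 (dashed line). After denervation both members lie at 0.48 and 0.47, and after entrapment and decompression miR-222 lies in the lower tail at -1.92 and -1.62 while miR-221 lies near 0.

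Entrapment and decompression were then set against denervation, which leaves out the single sham array. On the entrapment arrays miR-221 was below the mean of the denervation arrays, with log2 differences of -0.64, -0.54 and -0.49. The fitted difference was -0.56 (SE 0.07, adjusted p = 0.000420 by limma), a 1.47-fold lower mean. After decompression it was -0.53 (SE 0.07, adjusted p = 0.000572 by limma), 1.44-fold lower. Both differences are larger than the spread between arrays, yet smaller than those of miR-222. For miR-222 the difference was -2.39 (SE 0.18, adjusted p = 2.24e-05 by limma) after entrapment, and the readings as they stand put denervation 5.26-fold higher. After decompression it was -2.10 (SE 0.18, adjusted p = 4.57e-05 by limma). As miR-222 was detected on 1 of the 6 arrays of both groups, the size of these values is limited by detection. Against denervation, limma called 72 of 219 miRNAs (32.9%) lower after entrapment and 61 (27.9%) lower after decompression, so a lower value in these comparisons was common. With 18 and 19 higher, that split became 24 lower and 126 higher, and 26 and 128, under median scaling, and 38 and 51, and 38 and 46, under quantile normalization. The median over all tested miRNAs was -0.15 in either. Under median scaling the miR-221 differences were 0.08 and 0.12, against medians of 0.50 and 0.51. Under every other alternative tried they were negative and passed, at -1.001 and -0.96 with no scaling.

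The last comparison asks whether removing the tube changed either member. miR-221 differed between decompression and entrapment by 0.03 (SE 0.07, interval -0.13 to 0.19, adjusted p = 1 by limma) and miR-222 by 0.30 (SE 0.18, interval -0.11 to 0.71, adjusted p = 0.960 by limma). The groups overlapped for both. By limma 0 of 219 miRNAs (0%) were called, while 1 lower and 8 higher miRNAs had an unadjusted p under 0.05. For miR-222 the interval in folds is 0.924 to 1.64, but only 1 of these 6 arrays detected it. The interval thus gives the spread of readings near background and does not limit the change in the ganglia that could be missed. With the names of the second deposited table, these 2 groups trade places: miR-222 then differed by -0.29, and its difference from sham was -1.58 for entrapment and -1.86 for decompression.

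Over the 9 injury arrays of the DRGs, an exact permutation test of the F statistic, taken over the 280 ways of forming 3 groups of 3, gave p = 0.0250 for miR-221 and p = 0.0143 for miR-222. The smallest p this design allows is 0.00357. The same pattern can be read from the overlap of the arrays. All 4 arrays of sham and denervation were above the other 6 for both members, as for 59 of 219 miRNAs (26.9%). For miR-221 this rests on 38.54 against 38.49 on the scaled signal, and for miR-222 on 24.7 against 9.95. Of 211 miRNAs detected on all 4 of these arrays, 19 (9%) were detected on at most 1 of the other 6, and miR-222 is 1 of these. The part that the set of arrays has in these differences was not tested.

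Because both members are read on the same array, the change of one relative to the other does not depend on a constant factor per array. It does depend on an offset added to all signals of an array, and the negative control features differed between the array sets. For entrapment and decompression against the other groups, group and array set thus cannot be told apart here either. The log2 difference of miR-222 minus miR-221, set to 0 on the sham array, was 0.04, 0.04 and -0.09 on the denervation arrays. It was -1.76, -2.15 and -1.62 on the entrapment arrays and -1.23, -1.60 and -1.89 on the decompression arrays. The group means were -0.00 ± 0.07 (SD, n = 3), -1.84 ± 0.27 (SD, n = 3) and -1.57 ± 0.33 (SD, n = 3). After denervation the pair thus kept the proportion it had on the sham array, and on every entrapment and decompression array miR-222 was lower relative to miR-221. The exact permutation test over the 9 injury arrays gave p = 0.0143, and p = 0.0107 under quantile normalization and under loess, which are not constant factors. In the last 2 groups miR-222 was detected on 1 of 6 arrays, so the size there is limited by detection. The values show unequal change of the pair and not which of both changed.

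**Figure D4:**
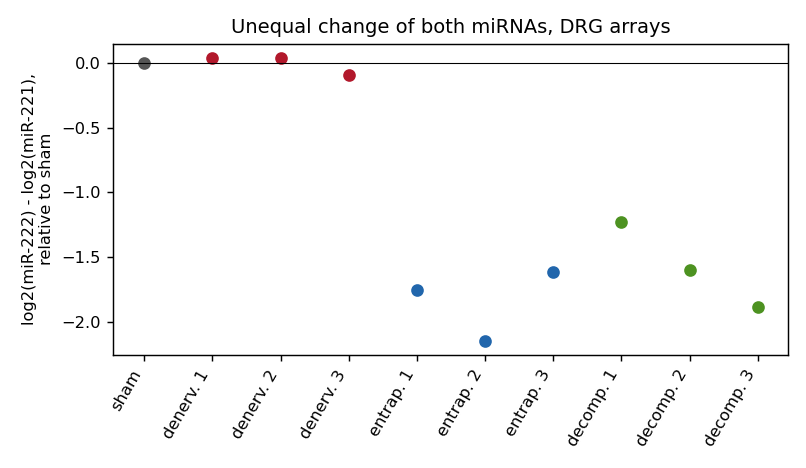
The log2 difference of miR-222 minus miR-221 on each DRG array, relative to the sham array (0). The 3 denervation arrays lie between -0.09 and 0.04, and the 6 entrapment and decompression arrays between -2.15 and -1.23.

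The miRNAs whose pattern over the 10 DRG arrays was most like that of each member were found by Pearson's r of the log2 scaled signal, as a description, since the arrays share the sets described above. For miR-221 the 3 most alike of 218 were miR-21 (r = 0.98), miR-352 (r = 0.94) and miR-30e* (r = 0.94). miR-21 differed from denervation by -1.24 after entrapment and -1.17 after decompression, and from sham by 0.05 and 0.11. miR-222 was the 12th most alike, with r = 0.87. For miR-222 they were miR-384-3p (r = 0.99), miR-374 (r = 0.98) and miR-125b* (r = 0.98), and miR-221 was the 40th. The 3 differed from sham by -1.82, -1.82 and -2.12 after entrapment and by 0.31, 0.49 and -0.11 after denervation. By this measure each member had closer matches among other miRNAs than in its partner.

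Other miRNAs known from nerve injury, glia, vessels, dividing cells and blood were read beside the pair. Their counts stand against those over all 219 tested miRNAs by limma. After entrapment 38 (17.4%) were lower than sham and 5 higher, and after decompression 36 (16.4%) were lower and 4 higher. After denervation 0 were lower and 1 higher. Of 3 nerve injury miRNAs on the array 2 were tested in the DRGs, and miR-21 alone passed after denervation. miR-31 was not called (0.23, adjusted p = 0.805 by limma). Of 4 vascular miRNAs none passed after denervation, and 2 were lower than sham after entrapment and after decompression. These were miR-126*, from the endothelial miR-126 hairpin, at -1.69 and -1.68, and miR-145, known from vascular smooth muscle, at -1.17 and -1.27. Their partners did not pass, miR-126 at -0.00 and -0.04 and miR-143 at 0.27 and 0.17. The summed scaled signal of the 4 was 1524 on the sham array, 1470 to 1629 after denervation, 1588 to 1681 after entrapment and 1297 to 1848 after decompression, and all 4 were detected on all arrays of each group. The neuronal miRNAs summed to 4915 on the sham array, 4180 to 4428 after denervation, 4470 to 5072 after entrapment and 4617 to 4987 after decompression. The 8 dividing cell miRNAs summed to 576 to 719 over all groups. Of the 7 tested, 1 was lower than sham after entrapment and none after denervation or decompression, and the brightest, miR-19b and miR-106b, differed from sham by -0.22 to 0.20 with no call. The 3 glial miRNAs summed to 7998 on the sham array and 9817 to 12473 on the others, and 1, miR-338 of myelinating glia, was higher after entrapment (0.52, adjusted p = 0.0290 by limma). miR-338 stood at 0.54 after denervation and 0.40 after decompression, which did not pass (adjusted p = 0.137 and 0.0703 by limma). Its other strand, miR-338*, stood at -2.04 after entrapment and -2.10 after decompression (adjusted p = 0.0607 and 0.0545 by limma), and miR-219-5p at 0.16 and 0.28, and neither passed. None of 6 blood miRNAs passed against sham, and their sum ranged from 1357 to 5008. The part of these cell types in the values of the pair was not tested. In tissue RNA, fewer cells of a type and less of the miRNA per cell cannot be told apart.

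In soleus, miR-221 was near the detection limit. Its signal was 5.16 on the sham array and was not detected there. After denervation it was 16.5 and 60.3 on detected arrays and 4.81 on an array that did not detect it. After entrapment it was 15.0 and 10.4, both detected, and 4.93, not detected, and after decompression it was 5.50, 12.1 and 3.73, none detected. The denervation 2 array stands out with 60.3, and it is also the brightest array of the tissue, with a 75th percentile of 2539 where the others had 409 to 1742. miR-222 was detected on that array alone, at 25.3, and read between -3.38 and 6.04 on the other 9. It was therefore not among the 173 soleus miRNAs tested.

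After scaling, soleus miR-221 stood at 13.8 on the sham array, with group means of 17.1 ± 7.65 (SD, n = 3) for denervation, 7.98 ± 1.25 (SD, n = 3) for entrapment, and 7.69 ± 5.37 (SD, n = 3) for decompression. The denervation and decompression arrays overlapped with sham, and the entrapment arrays lay below it. The differences from sham were 0.23 (SE 0.69, interval -1.34 to 1.79, adjusted p = 0.838 by limma) after denervation, -0.80 (adjusted p = 0.431 by limma) after entrapment and -1.07 (adjusted p = 0.276 by limma) after decompression, and none passed. They stand against 26%, 29.5% and 31.8% of the 173 tested miRNAs that limma called in either direction. These calls split into 26 lower and 19 higher, 34 and 17, and 38 and 17, and into 5 and 1, 6 and 19, and 9 and 26 under median scaling. From denervation, entrapment differed by -1.03 (adjusted p = 0.237 by limma) and decompression by -1.30 (adjusted p = 0.118 by limma), where 11.6% and 13.9% of miRNAs were called (20 lower and 0 higher, 22 and 2, against 2 and 65, and 2 and 49, under median scaling). No decompression array detected miR-221, and the array decompression 2, at 13.8, lay above 2 of the 3 denervation arrays. Decompression and entrapment differed by -0.27 (interval -1.38 to 0.84, adjusted p = 1 by limma), and 0 of 173 miRNAs (0%) were called, although 6 were lower and 0 higher where p was taken unadjusted at 0.05. The sign of the denervation difference rests on denervation 2 and was -0.12 without it. The signs after entrapment and decompression turned under median scaling (1.22 and 0.84, where the medians of all tested miRNAs were 1.45 and 1.59) and under quantile normalization, loess and no scaling. The exact permutation test over the 9 injury arrays gave p = 0.150. Thus no comparison of miR-221 in the muscle passed as scaled here. Decompression minus denervation did pass without decompression 2 (-1.83, adjusted p = 0.0274 by limma). With the negative controls subtracted, entrapment and decompression passed against sham (-2.28 in both, adjusted p = 0.0357 and 0.0318 by limma) and against denervation (-2.42 in both, adjusted p = 0.00967 and 0.00859 by limma). There, all arrays of both groups stood at the floor, the lowest value allowed (1.44 on the log2 scale). These differences thus rest on the floor and are not measured sizes.

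The 3 soleus miRNAs most alike to miR-221 over the 10 arrays were miR-125a-5p (r = 0.84), miR-125b* (r = 0.81) and miR-664 (r = 0.80), lower likeness than in the ganglia. In the same muscles miR-21 was higher than sham by 3.28, 3.59 and 3.23 after denervation, entrapment and decompression, with adjusted p of 0.000845, 0.000374 and 0.000627 by limma. Among all 173 miRNAs tested in soleus, limma called 26, 34 and 38 lower than sham and 19, 17 and 17 higher. Under median scaling these were 5, 6 and 9 lower and 1, 19 and 26 higher. Of 8 dividing cell miRNAs 7 were tested in soleus, of which 1, 2 and 2 were lower than sham and 0 were higher. Of the 5 muscle miRNAs, all tested, 1 was higher after denervation (miR-1, by 3.00, adjusted p = 0.0358 by limma) and 1 lower in each injury group (miR-133b, at -1.99, -2.14 and -1.75).

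The level in both tissues was compared on 20 arrays scaled together, over 234 tested miRNAs. Soleus minus DRG was -2.46 for miR-221 (SE 0.23, adjusted p = 8.47e-08 by limma) and -2.35 for miR-222 (SE 0.16, adjusted p = 3.13e-09 by limma), against a median of -1.04. For miR-222 every soleus entrapment and decompression array stood at the floor. The size, SE and p of its tissue difference thus rest partly on the floor. On the sham arrays the readings were 3.68-fold higher in the ganglia for miR-221 and 6.90-fold higher for miR-222. Soleus detected neither there, so these folds are not exact. After decompression the readings of miR-221 were 8.30-fold higher in the ganglia, again with no detection in soleus. For miR-222 after decompression no fold is given, as only 1 of 3 DRG arrays and no soleus array detected it. The change from sham was not shown to differ between the tissues for either member, with adjusted p of 0.173 to 0.996 over the 6 tests by limma. For miR-222 after entrapment and after decompression these tests cannot decide. Its soleus sham reading of 3.98 was not detected, and the floor of 2.32 left little room for a fall. The change did differ between the tissues for miR-222 with the negative controls subtracted (2.87 after entrapment and after decompression, adjusted p = 0.0136 and 0.0105 by limma). It also did for miR-221 after decompression without soleus decompression 2 (-1.70, adjusted p = 0.0213 by limma). That subtraction puts DRG miR-222 at the floor in both groups, and only 1 soleus array detected miR-222. The value of 2.87 is therefore not a measured difference. The tissue difference of miR-221 depends on the scaling and was 0.0042 under median scaling, while that of miR-222 kept its sign under all alternatives tried.

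**Figure D5:**
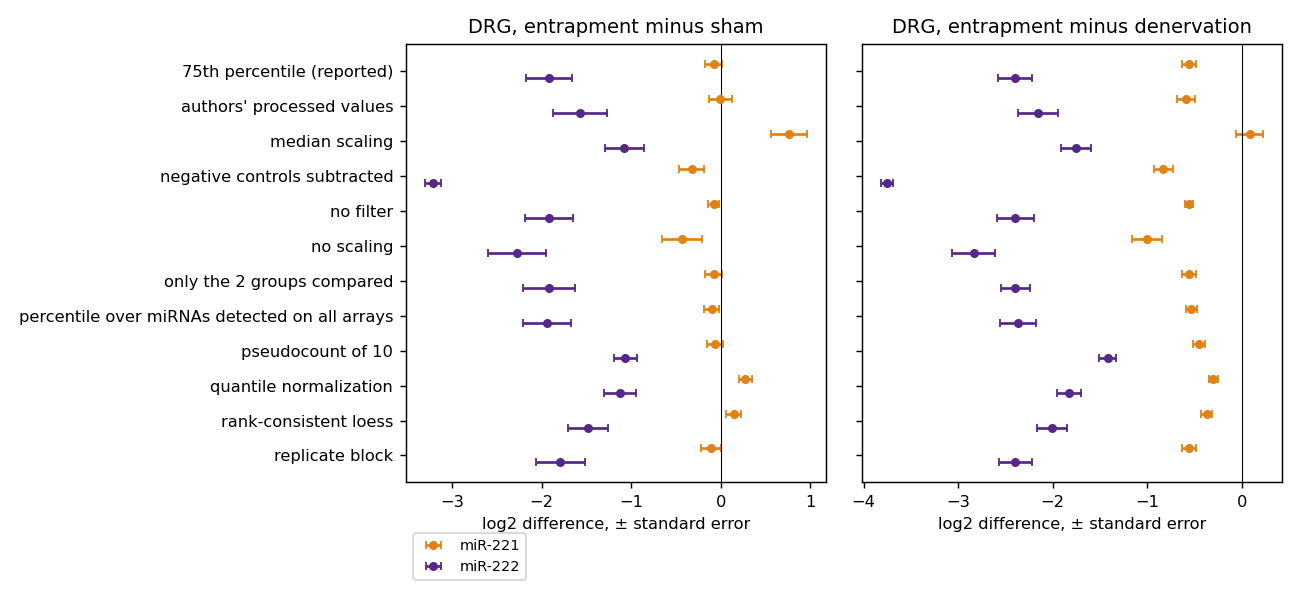
The log2 differences (with SE) of miR-221 and miR-222 in the DRGs under each way of processing, for entrapment minus sham (left) and entrapment minus denervation (right). miR-222 lies below 0 under every setting, between -3.21 and -1.07 on the left and between -3.75 and -1.42 on the right, while miR-221 lies between -0.43 and 0.76 on the left and turns to 0.08 under median scaling on the right. The lowest miR-222 values, with the negative controls subtracted, have the entrapment arrays at the floor, the lowest value allowed.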

How the data were processed

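Total RNA of soleus and DRGs was read on 20 single-colour Agilent rat miRNA arrays. The labels describe Cy3-CTP amplification and the methods pCp-Cy3 ligation. The authors deposited per array the total gene signal, a background-subtracted intensity from Agilent Feature Extraction 9.5.3, not normalized between arrays, with its error and detection call. They also deposited a table of processed signal, which for both members equals that intensity divided by a constant per array, apart from 5 soleus values of miR-222 set to 0.01. It was used as an alternative only. The methods name rank-consistency LOWESS without a reference, so its nearest form was an alternative.

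Here, arrays were scaled to a common 75th percentile, computed over 108 miRNAs called present on every soleus array, over all 348 in the DRGs, and over 102 present on every array between tissues. The median lowest detected signal (2.72, 2.28 and 2.32) served as the floor before log2. A miRNA with a detection call on 3 or more arrays was tested by limma 3.58.1 in R 4.3.3 with group as the only term and 6 residual degrees of freedom in a tissue, 12 between tissues. All tests were two-sided, with Benjamini-Hochberg adjustment. The single sham array takes its spread from the injury groups. The labels call arrays replicates without naming the animals, so p-values measure the spread between arrays. Folds were taken on means of log2 values. Where no array of a group detected the miRNA, each reading there was used, raised where lower to the lowest detected signal. Such a fold rests on readings of under 3 errors, and a level up to that limit would make it smaller.

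Named miRNAs were the members, the 3 most alike in each tissue, the 2 brightest of each marker list, and short lists whole. The members and lists were chosen with earlier results of these data known. A correlation of miR-221 with miR-222 was planned but no p is given, since the DRG arrays fall into 2 sets and miR-222 was detected on 1 soleus array. A simulation changed 40 miRNAs by 2 on the log2 scale, on the denervation arrays alone. Among 219 DRG miRNAs limma recovered 37 (1 false call) for denervation minus sham and 39 (4 false) for entrapment minus denervation. Among 173 in soleus it recovered 26 (1 false) and 29 (1 false). The noise was normal, with no floor, no detection limit and no offset between array sets. The simulation thus does not cover readings near the floor, differences between the sets, or changes as small as those of DRG miR-221. Same-numbered arrays did not all deviate together (r -0.12 to 0.48 over 9 DRG pairs, -0.47 to 0.21 in soleus). Alternatives were other scalings, a pseudocount of 10, other filters, the processed table, only the groups compared, a replicate block, leaving out arrays, and, chosen after seeing the data, subtracting the median of 7 negative control features.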

Additional observations from a re-analysis of the deposited data

How the results depend on the processing

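The DRG calls of miR-222 against sham and against denervation, and of miR-221 against denervation, kept direction and threshold under all alternatives except those named here. Fitted on the groups compared alone, miR-222 gave -1.92 after entrapment and -1.62 after decompression (adjusted p = 0.0651 and 0.0661 by limma). Median scaling moves the median of all tested DRG miRNAs from -0.11 to 0.73 for entrapment minus sham. It gave for DRG miR-221 0.76 and 0.80 against sham (both past the threshold) and 0.0842 and 0.12 against denervation (entrapment, then decompression), a permutation p of 0.575 (exact), soleus miR-221 1.22 and 0.84 against sham and 0.90 and 0.51 against denervation, and 0.0042 for soleus minus DRG. The tissue differences of the change from sham were 0.46 and 0.0331 for miR-221 and -0.59 and -0.83 for miR-222. The 2-fold count of members after decompression in the DRGs was 0 under median scaling and 0 under quantile normalization, not 1. Quantile normalization gave DRG miR-221 0.58 after denervation, 0.28 and 0.25 against sham (all 3 past the threshold) and -0.0304 for decompression minus entrapment, soleus miR-221 0.60 and 0.25 against sham, and tissue differences of 0.20 for miR-221 and -0.19 and -0.15 for miR-222. Loess gave DRG miR-221 0.52, 0.14, 0.13 and -0.0128 and soleus 0.46 and 0.19 in the same order. With no filter, DRG miR-221 passed after denervation (0.48). With no scaling, soleus miR-221 was 0.83 and 0.28 against sham, and the tissue differences were 1.14, 1.27 and 0.68 for miR-221 (denervation, entrapment, decompression) and 0.92 for miR-222 after denervation. With the percentile over all miRNAs, soleus miR-221 after entrapment was 0.0054 and the tissue differences were 0.0400 and 0.0856 for miR-221 and 0.27 for miR-222.

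The authors' processed values gave -0.0201 and -0.29 for decompression minus entrapment of miR-221 and miR-222 in the DRGs, 1.39 for soleus miR-221 after entrapment, an exact permutation p of 0.00714 there, 1 member by the 2-fold rule in soleus after denervation and 1 after entrapment, not 0, and tissue differences of 1.58 and 1.39 for miR-221 and 1.81 and -0.19 (decompression) for miR-222. The mean of the 3 arrays gave 1 in soleus after decompression. With the negative controls subtracted, soleus miR-221 passed at -2.28 against sham and -2.42 against denervation in both groups (exact permutation p = 0.0357), DRG miR-221 passed at -0.41 after decompression and was -0.0852 for decompression minus entrapment, DRG miR-222 passed after denervation at 0.54, and the tissue differences of miR-222 were 0.22, 2.87 and 2.87, of which the last 2 passed. In that setting soleus miR-221 and DRG miR-222 stood at the floor on all entrapment and decompression arrays, so their values in these groups are not measured levels. In soleus the constant of the processed table was 100 for the sham array and for denervation replicates 1 and 2, and 38.7 for denervation replicate 3. Without denervation replicates 1 and 2, soleus miR-221 after denervation was -0.11. The cause of these changes was not tested.

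Leaving out 1 array gave -0.12 to 0.40 for soleus miR-221 denervation minus sham, -1.83 to -0.87 for decompression minus denervation (past the threshold without decompression 2, adjusted p = 0.0274 by limma) and -0.81 to 0.15 for decompression minus entrapment, -0.0135 to 0.0650 for the last in the DRGs, and tissue differences of -1.70 to -0.75 for miR-221 after decompression (past the threshold without soleus decompression 2, adjusted p = 0.0213 by limma) and -0.39 to 0.22 for miR-222 after denervation. DRG miR-222 kept its calls, at -2.07 to -1.78 (entrapment) and -1.78 to -1.49 (decompression) against sham. With a replicate block, although the numbers do not pair the arrays, it was -1.79 and -1.49, with no call of either member changed. Over the alternatives the counts of all DRG miRNAs called lower were 14 to 70 (entrapment) and 16 to 82 (decompression) against sham, 24 to 134 and 26 to 128 against denervation, and 11 to 47 and 10 to 48 by the 2-fold rule, with 1 to 13 higher after denervation. In soleus 0 to 54, 2 to 70 and 5 to 72 were called against sham and 0 to 67 and 2 to 51 against denervation. miR-222 was not tested in soleus, where it was detected on 1 array, nor was detection on all arrays possible for it in the DRGs. Signal over background limits miR-222 after entrapment and decompression, and both members in soleus.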
